A study of Mus musculus with 90 samples.

Results

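The genes described here encode the proteins of the cytosolic ribosome. They were chosen by name: protein-coding genes whose symbol is Rpl or Rps with a number and an optional a, x, l or y and digit, together with Rplp0, Rplp1, Rplp2 and Rpsa, with symbols ending in -ps left out. This rule found 83 genes among the 37991 gene identifiers of the count table, 51 named for the large subunit and 32 for the small subunit. The rule used no measured value. Fau, whose product is cut to give a ribosomal protein, and Rack1, a protein that sits on the small subunit, fall outside the name rule and are given beside the members.

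Poly(A) RNA was sequenced from dissected frontal cortex, amygdala and hypothalamus of male C57BL/6J mice that each held a territory after being housed with a female, who was taken out 3 h before the test. The intruder groups were residents shown an unfamiliar BALB/cJ male inside a wire mesh cage for 5 min, and the control groups were residents shown the same cage with a paper cup in it. Tissue was taken 30, 60 or 120 min after exposure, which gave 18 groups of 3 to 6 libraries and 90 libraries in all. No age and no allele or agent beyond these is given in the labels. The labels tie each library to 1 animal although the design text speaks of pooled RNA, so the spread between libraries, which is what p-values here measure, may be that of animals or of pools.

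Reads assigned to genes numbered 38.6 M to 58.86 M per library, with a median of 49.01 M. The genes of the set took 0.834% to 1.669% of them. Levels are given in CPM, counts per 1e6 reads of the tested genes after scaling between libraries. Pmch, a hypothalamic peptide gene, had a median of 415 CPM in hypothalamus, 0.303 in amygdala and 0.217 in frontal cortex. Slc17a7, the vesicular glutamate transporter of cortical neurons, had medians of 1426 CPM in frontal cortex and 606 in amygdala. Rspo2, a marker listed for amygdala, had a higher median in frontal cortex (15.1 CPM) than in amygdala (6.08), and the sum of 6 amygdala markers overlapped, at 195 to 809 CPM in amygdala and 192 to 572 in frontal cortex. Hypothalamus 120 min control 2 held 167 CPM of Slc17a7 against a regional median of 3.90. All columns of the 30 min libraries carry a different tag in the table's header from those of 60 and 120 min, and the leading sequencing index mostly followed the group. What the tag stands for is not given in the sources used here, so a difference between 30 min and the later times cannot be told apart from it.

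Ribosomal proteins are for the most part made in equal numbers and assembled with ribosomal RNA in the nucleolus. Their messages are among the most abundant in any cell. Their promoters are usually active in all cell types, and their messages begin with a pyrimidine tract, the terminal oligopyrimidine (TOP) motif, through which the growth kinase mTOR and the protein Larp1 control translation and stability. A few members have paralogs, such as Rpl22l1 for Rpl22 and Rpl3l for Rpl3, whose levels differ between tissues. Ribosomal genes have many processed pseudogenes. Non-uniquely aligned reads, 9.79% to 11.5% of the reads in the table, were counted for no gene, so the level of a single member is uncertain.

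The promoters of the members are shown because ribosomal protein genes are held to share promoter elements and the members moved together in the results below. They were read from RefSeq (GRCm38.p6), which held 75 promoter entries for 63 of the 83 members, each with 250 bases before and 50 after the start. The most calls of a member, in 6 of 24 comparisons, were shared by 8 members. The windows below run from 60 bases before the start to 30 after it, for 4 of these. They are those with an entry and the smallest adjusted p over times in frontal cortex intruder groups. Capitals mark a pyrimidine tract near the start (Rps18, Rps27) or the letters CCGGAAG, the core of sites for ETS factors such as GABP (Rpl41, Rpl11). Rpl41 lies at chr10:128549139-128549228, Rps18 at chr17:33955636-33955725, Rpl11 at chr4:136053364-136053453 and Rps27 at chr3:90213619-90213708, all on the minus strand.
Rpl41: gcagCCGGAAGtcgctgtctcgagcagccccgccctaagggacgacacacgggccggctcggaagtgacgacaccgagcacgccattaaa
Rps18: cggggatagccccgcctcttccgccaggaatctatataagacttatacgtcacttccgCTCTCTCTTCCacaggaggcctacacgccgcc
Rpl11: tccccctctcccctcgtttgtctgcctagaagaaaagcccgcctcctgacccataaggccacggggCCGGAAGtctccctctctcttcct
Rps27: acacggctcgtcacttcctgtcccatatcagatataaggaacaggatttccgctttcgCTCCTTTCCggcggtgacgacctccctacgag

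The tract was taken as a C within 10 bases of the start followed by at least 4 pyrimidines on the sense strand. It was found in 41 of 75 member promoters (54.7%) and in 30.7% of all 32851 promoters. In Rps18 and Rps27 it begins 2 bases before the annotated start and is 11 and 9 bases long, and in Rpl41 and Rpl11 none was found within that window. On either strand of the whole 300 bases, CCGGAAG was found in 36.0% of member promoters and 8.86% of all, CTTTCC in 49.3% and 26.6%, CTTTTC in 24.0% and 21.8%, AAGATGG, a YY1-like sequence, in 16.0% and 6.34%, and TATAAA in 9.33% and 13.6%. The tract and CTTTCC or CTTTTC can overlap. A match is a description of letters and not of a bound site.

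Of the 83 members 81 had enough reads for testing, in each region and over all libraries. Rpl10l, a retrogene of Rpl10 known from testis, had 0 reads in all 90 libraries, and Rpl39l, also known from testis, had 237 reads in total. In CPM averaged over the 90 libraries, the highest were Rpl4 (389), Rpl3 (362), Rplp1 (332), Rpl13a (295) and Rpsa (278). Per kilobase of transcript, the scale on which genes may be compared, the highest were Rplp1 (665 CPM per kb), an acidic protein of the ribosomal stalk, then Rps29 (425), Rps15 (403), Rpl9 (351) and Rps27 (321). The lowest tested members were Rpl3l, the muscle paralog of Rpl3 (0.274 CPM per kb), Rps27l (15.9), Rpl7l1 (23.0), Rps20 (27.9) and Rps15a (31.5). Rps15a and Rps20 have long annotated transcripts, 5130 and 3706 bases against a median of 827 for the members, which lowers their values on this scale. Members varied together: within groups the correlation of a member with the mean of the set had a median of 0.92 across the 90 libraries, 74 of 81 were above 0.8, and Rpl3l (0.133), Rps15a (0.525) and Rpl15 (0.559) were lowest. This is a description, since libraries share depth and scaling and each member is part of the mean.

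In frontal cortex, the ribosomal protein genes were higher at 60 min than at 30 min and lower again at 120 min, in controls and in intruder-exposed residents alike. The summed level of the 81 genes in controls was 9536 ± 366 CPM at 30 min (SD, n = 5), 11206 ± 567 at 60 min (n = 5) and was 9903 ± 438 at 120 min (n = 6). The 60 min controls ran from 10884 to 12202 CPM and did not overlap those of 30 min (9167 to 10063) or 120 min (9096 to 10360). For residents shown an intruder the sums were 9111 ± 504 CPM after 30 min (SD, n = 5), 11597 ± 992 after 60 min (n = 5) and 9836 ± 382 after 120 min (n = 6). Their 60 min libraries (10152 to 12686) lay above all 30 min libraries (8391 to 9605) and overlapped those of 120 min (9388 to 10441). In bulk tissue, fewer cells of a type and less RNA per cell cannot be told apart.

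**Figure D1:**
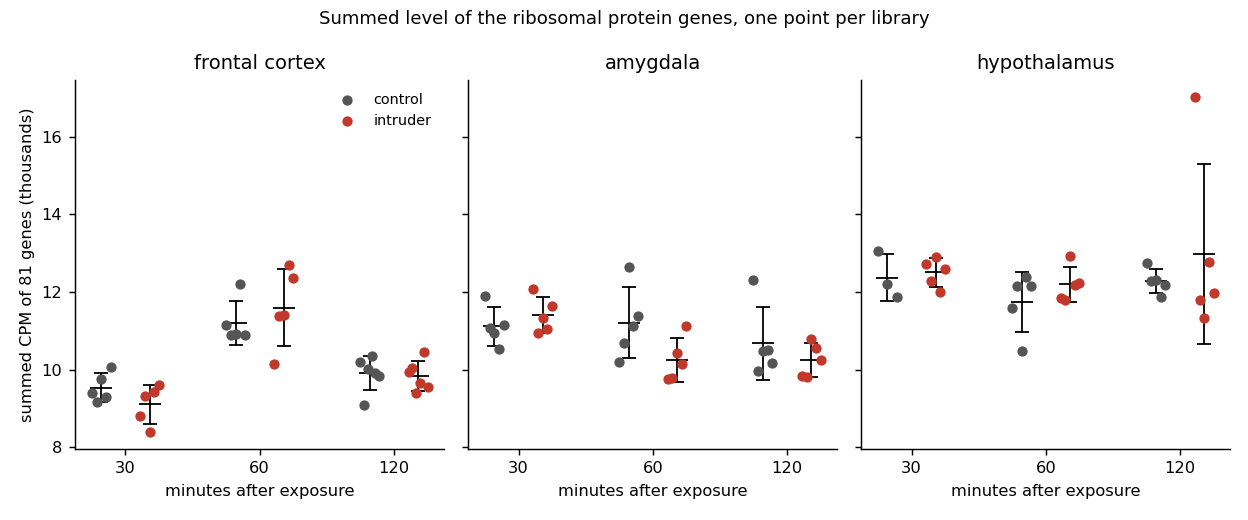
Summed CPM of the 81 tested ribosomal protein genes (y axis, in units of 1000 CPM, not starting at 0) by minutes after exposure, in 3 regions. Each point is a library, grey for control and red for intruder, and bars are mean ± SD. In frontal cortex the 60 min libraries stand above those of 30 min, and 1 hypothalamus library at 120 min (17039 CPM) stands far above its group.

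Tested gene by gene over the 3 times, 76 of 81 members passed an adjusted p of 0.05 in controls, where 33.4% of all genes tested did, and 79 of 81 in the intruder groups, where 46.1% did. All 81 had their highest mean at 60 min in both conditions. Members both called and highest at 60 min numbered 76 and 79, where 14.7% and 19.6% of all genes were both. The median log2 difference of the members from 30 to 60 min was 0.23 in controls and 0.36 in the intruder groups. From 60 to 120 min it was -0.19 and -0.25. The median of all genes lay within 0.01 of 0, where scaling between libraries tends to place it. From 30 to 120 min the member medians were 0.05 and 0.11. Libraries of 60 and 30 min did not overlap for 67 members in controls (11.1% of all genes in that direction) and 69 in the intruder groups (10.8%), with the later time higher in each. Comparing only 60 and 120 min, which share the header tag, 65 members fell in controls (15.9% of all genes differed) and 76 in the intruder groups (22.9%). From 60 to 120 min, 56 members in controls (3.49% of all genes) and 14 in the intruder groups (2.16%) were lower with no overlap. The control count of 65 rests on single libraries: it was 9 without the 60 min control 5, the highest of its group, and 38 without the 120 min control 2, with member medians of -0.16 and -0.17. With length and GC offsets 27 and 39 members fell. With the leading index in the fit, possible for the intruder groups alone, 0 passed (edgeR) at a member median of -0.32.

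Rpl7a (ENSMUSG00000062647), a large-subunit protein, had the smallest adjusted p in both conditions. Its levels in controls were 149, 149, 149, 152 and 152 CPM at 30 min and 176, 181, 187, 197 and 202 CPM at 60 min, and 159 to 175 (median 168) at 120 min. In the intruder groups they were 138, 139, 149, 150 and 155 CPM at 30 min, 170, 194, 200, 205 and 208 at 60 min, and 153 to 173 (median 163) at 120 min. In neither condition did a 60 min library reach down to the 30 min range. The log2 rise from 30 to 60 min was 0.33 ± 0.047 (SE) in controls and 0.42 ± 0.047 in the intruder groups, with adjusted p of 6.18e-05 and 8.81e-07 over the 3 times (edgeR quasi-likelihood F test).

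Rps6 (ENSMUSG00000028495), the small-subunit protein phosphorylated by the S6 kinases and widely used as a marker of neuronal activity in that form, was next. Controls had 72.8, 73.1, 74.1, 74.9 and 77.0 CPM at 30 min, 87.7, 88.1, 88.7, 92.0 and 98.5 at 60 min, and 77.5 to 88.4 (median 84.2) at 120 min. Intruder libraries had 66.5, 69.3, 74.3, 75.9 and 76.0 CPM at 30 min, 86.8, 94.3, 94.7, 97.0 and 103 at 60 min, and 77.5 to 84.5 (median 82.1) at 120 min. The 60 min libraries were above all 30 min libraries in both conditions, and above all 120 min libraries in the intruder groups alone. The log2 rise was 0.29 ± 0.044 in controls and 0.39 ± 0.044 in the intruder groups (adjusted p of 0.000124 and 9.56e-07 over the 3 times). In controls the third gene by adjusted p was Rps16, also of the small subunit (log2 rise 0.37 ± 0.064, edgeR adjusted p = 0.000282).

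The stalk proteins, which recruit the elongation factors, followed the same course. Rplp1 had 297 ± 9.77 CPM at 30 min, 357 ± 25.9 at 60 min and 325 ± 24.7 at 120 min in controls, and 285 ± 18.8, 375 ± 33.7 and 309 ± 11.4 in the intruder groups. Rplp0, often taken as a reference gene in quantitative PCR, rose from 130 ± 3.31 to 148 ± 5.04 CPM in controls and from 123 ± 6.52 to 153 ± 9.94 in the intruder groups. Its adjusted p over the 3 times was 0.00332 and 5.30e-06 (edgeR quasi-likelihood F test). That test includes the 30 min libraries, whose header tag differs, so a change with time alone cannot be told apart from the tag. Rplp2 had adjusted p of 0.000800 and 7.05e-05, and Rpsa, a small-subunit protein also known as a laminin receptor, had 0.0127 and 7.62e-05. Rpl41, the smallest ribosomal protein, went from 137 ± 9.71 to 175 ± 21.6 CPM in controls and from 129 ± 13.7 to 181 ± 13.6 in the intruder groups.

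A few members did not pass. Rps15a, a small-subunit protein, had 129 ± 5.75, 132 ± 6.50 and 126 ± 2.87 CPM at 30, 60 and 120 min in controls, and 127 ± 6.30, 131 ± 5.05 and 128 ± 4.02 in the intruder groups. Its adjusted p was 0.295 and 0.561, and its libraries overlapped between times. Rpl3l, at under 1 CPM, did not pass in either condition. In controls Rps29 (edgeR adjusted p = 0.0768), Rps27l (0.0791) and Rpl12 (0.239) also missed the threshold, while in the intruder groups they passed (2.24e-05, 0.000159 and 0.00187). Whether these effects differ between conditions was tested only as the interaction given below, which none passed.

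**Figure D2:**
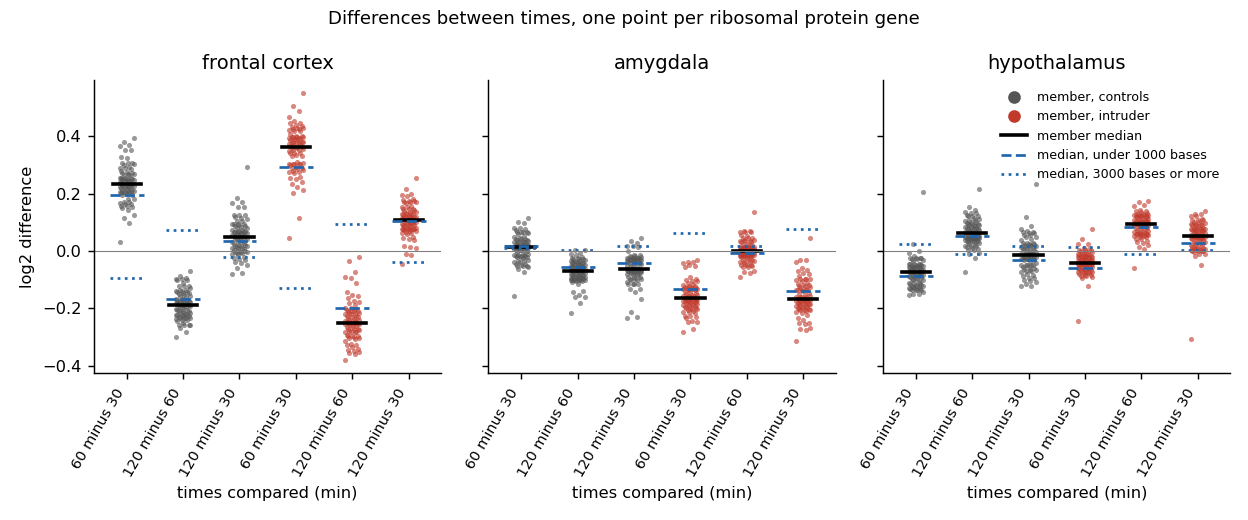
Log2 differences between times (y axis) for each of the 81 ribosomal protein genes (points, grey controls and red intruder groups) in 3 regions, with the member median (black), the median of other protein-coding genes with transcripts under 1000 bases (dashed blue) and of those of 3000 bases or more (dotted blue). In frontal cortex all 81 lie above 0 from 30 to 60 min and below 0 from 60 to 120 min, and the short genes move with them while the long genes move the other way.

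Other transcripts of like length had medians of the same sign. Most members are short: 57 of 83 are under 1000 bases, and the tested genes as a whole had a median of 2690.5 bases. The 853 other protein-coding genes under 1000 bases in frontal cortex had median log2 differences of 0.19 (30 to 60 min) and -0.17 (60 to 120 min) in controls and 0.29 and -0.20 in the intruder groups. Of these short genes 46.3% and 62.3% were called over times. Genes of 3000 bases or more had -0.10 and 0.07, and -0.13 and 0.09. With offsets that remove trends with length and GC content, the member medians were 0.14 and -0.11 in controls and 0.20 and -0.12 in the intruder groups, and 49 and 71 members were called. Within groups, the mean log2 level of the members correlated across the 90 libraries with that of short genes (Pearson 0.95, Spearman 0.92, and Pearson 0.93 without the 2 most extreme libraries) and inversely with that of long genes (Pearson -0.79). All levels share a library's scaling, and no test was made of this. The part of transcript length in the time course was not tested.

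**Figure D3:**
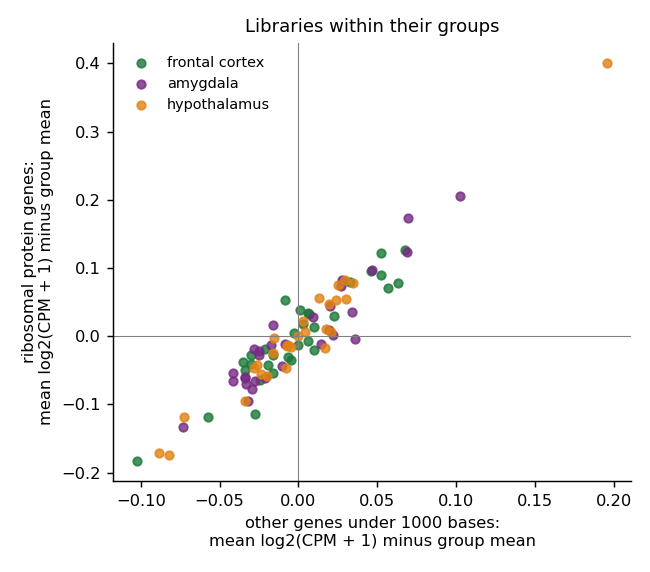
Mean log2(CPM + 1) of the ribosomal protein genes (y axis) against that of other protein-coding genes under 1000 bases (x axis), each as the difference from its group's mean, with 1 point per library and colours for the regions. The points lie along a rising line (Pearson 0.95 over 90 libraries).

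Oligodendrocyte and blood markers also changed in frontal cortex over time. All 6 oligodendrocyte markers of the list passed the test over times in both conditions, with summed levels of 2815 to 3603 CPM at 30 min, 4085 to 6399 at 60 min and 3408 to 5413 at 120 min in controls, and 2216 to 3721, 3904 to 5781 and 3507 to 5794 in the intruder groups. Between 60 and 120 min 0 of the 6 passed in either condition (edgeR), where 65 and 76 members fell. Of 5 blood markers 4 passed over times in each condition, with sums of 70.4 to 102 CPM at 30 min, 112 to 138 at 60 min and 96.4 to 145 at 120 min in controls, and 62.1 to 98.8, 102 to 169 and 80.5 to 128 in the intruder groups. Between 60 and 120 min 0 of 5 blood markers passed in controls and 4 of 5, all lower, in the intruder groups. Over times 1 of 5 neuron, 2 of 5 astrocyte and 3 of 5 endothelial markers passed in each condition. Of 5 markers of mural cells, the contractile cells of vessel walls, 2 passed in controls and 3 in the intruder groups, and their sums were 203 to 233 and 204 to 252 CPM at 30 min against 138 to 187 and 174 to 197 at 60 min. Of 5 thalamus markers 2 passed in each condition, with sums of 124 to 140 and 126 to 142 CPM at 30 min against 72.1 to 112 and 90.9 to 119 at 60 min. Reads outside annotated genes also differed as a share of all reads in the count table, at 10.99% to 13.2% in libraries of 30 min, 8.63% to 10.3% at 60 min and 9.46% to 11.3% at 120 min, with no overlap between the first 2 times. In controls, reads aligned to more than 1 place were 10.2% to 10.5% at 30 min, 10.7% to 11.3% at 60 min and 10.1% to 10.7% at 120 min. In the intruder groups they were 10.05% to 10.7%, 10.3% to 11.5% and 10.1% to 10.7%, which overlap. No marker of the oligodendrocyte and blood lists was at 0. The part of these markers and read classes in the result was not tested. Within the 1 leading index that held frontal cortex libraries of 60 and 120 min, 2 controls of 60 min (10884 and 12202 CPM summed) lay above 6 intruder libraries of 120 min (9388 to 10441).

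Of the genes of the pathway that are not members, Fau and Rack1 were called over times in both conditions and were highest at 60 min. Fau, whose product is cut to give a small-subunit protein, rose by 0.32 ± 0.060 in controls and 0.45 ± 0.060 in the intruder groups from 30 to 60 min (log2 ± SE), and Rack1 by 0.18 ± 0.043 and 0.32 ± 0.043. Of 16 further genes with TOP messages, chiefly elongation and initiation factors, 9 were called in controls and 11 in the intruder groups, of which 9 and 10 were highest at 60 min. The log2 differences of Eef1a1, the most abundant elongation factor, from 30 to 60 min were 0.19 ± 0.043 and 0.21 ± 0.043. Genes of the mitochondrial ribosome, a separate set of proteins, were called for 52 of 76 in controls and 62 of 76 in the intruder groups, all highest at 60 min. Of 18 genes of ribosome assembly and ribosomal RNA synthesis 6 and 7 were called, and 5 and 6 of these were highest at 60 min. Of 13 genes of the mTOR and Myc growth pathway 6 and 8 were called, of which 1 and 2 were highest at 60 min. Of all genes 33.4% and 46.1% were called, and 14.7% and 19.6% were called with their highest mean at 60 min. These lists were chosen with earlier results of these data known.

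In amygdala 28 members were lower after 30 min in the intruder groups. There 28 of 81 were called over times, all 28 highest at 30 min, where 12.9% of all genes were called and 4.82% were both called and highest at 30 min. The summed level was 11413 ± 459, 10245 ± 567 and 10246 ± 439 CPM at 30, 60 and 120 min (SD, n = 5 each). The member median was -0.17 from 30 to 60 min and -0.17 from 30 to 120 min, and 15 and 32 members passed in those pairs of times, where 7.41% and 15.0% of all genes did. With length and GC offsets 4 and 5 passed at medians of -0.11 and -0.08, and with upper-quartile scaling 32 and 45 passed. Rpl36 (ENSMUSG00000057863), a large-subunit protein, had the smallest adjusted p (0.00442): its levels were 62.7, 68.5, 70.2, 72.4 and 74.3 CPM at 30 min, 53.3, 55.6, 56.0, 58.3 and 63.0 at 60 min. At 120 min they were 53.6, 54.7, 55.4, 56.0 and 60.4 CPM. All libraries of 120 min lay below those of 30 min, while the ranges of 30 and 60 min overlapped. Rpl35 (edgeR adjusted p = 0.00899) and Rpl22l1 (0.00905), also of the large subunit, followed. In amygdala controls 0 of 81 were called by edgeR, DESeq2 or limma voom, with 3 at an unadjusted p below 0.05. Of all genes 0.232% were called there, 0.0752% were called and highest at 30 min, and 10.9% had an unadjusted p below 0.05. The control medians were 0.01 from 30 to 60 min (-0.03 without the 60 min control 3), -0.07 from 60 to 120 min, with 79 members lower, and -0.06 from 30 to 120 min, with 75 lower. The last ranged from -0.11 without the 120 min control 1 to -0.03 without the 30 min control 1, and the one before it from -0.13 without the 120 min control 1 to -0.03 without the 60 min control 3.

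The amygdala count changed with single libraries and with the index. It was 4 without the 30 min intruder 1, 11 without intruder 5, 15 without intruder 3 of that time, 17 without the 60 min intruder 1 and 44 without the 60 min intruder 5. It was 7 with offsets for length and GC content. With the leading index in the fit it was 0, while the member median from 30 to 120 min was -0.28 against -0.17 without the index. In controls the same median was -0.21 with the index. Between 60 and 120 min alone the count was also 0. Of 5 endothelial markers 4 were called, with sums of 173 to 209 CPM at 30 min, 127 to 219 at 60 min and 90.6 to 135 at 120 min, and of 5 astrocyte markers 3 were called, with sums of 1202 to 1372, 1360 to 1454 and 1305 to 1865 CPM. No marker of these lists was at 0, and 0 of 6 oligodendrocyte markers were called (edgeR). Reads outside annotated genes were 10.8% to 11.95% of all reads in the table at 30 min, 11.7% to 13.8% at 60 min and 12.3% to 13.5% at 120 min in these intruder libraries, with no overlap between the first and the last time. The 845 short genes had medians of -0.13 from 30 to 60 min and -0.14 from 30 to 120 min, and 13.8% of them were called over times. The part of these values in the result was not tested.

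In hypothalamus 0 of 81 members were called over times in either condition, by edgeR, DESeq2 or limma voom, with 1 member in controls and 0 in the intruder groups at an unadjusted p below 0.05. All genes were called at 0.181% and 1.49%, and 9.88% and 14.4% of them were below that unadjusted p. Member medians were -0.08 in controls and -0.04 in the intruder groups from 30 to 60 min, and 0.06 and 0.09 from 60 to 120 min. The last of these was -0.03 without the 120 min intruder 1. Without the 60 min control 3 the control medians were -0.03 and 0.02, and the intruder median from 30 to 60 min was -0.03 without the 60 min intruder 2.

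Whether the time course differed between regions was tested over all libraries, a test added after the courses had been seen. It passed for 79 of 81 members in the intruder groups, where 35.5% of all genes passed, and for 45 of 81 in controls, where 18.4% passed. Rpl7a was first in both (adjusted p = 1.93e-08 in the intruder groups and 0.000169 in controls), followed by Rpl37a and Rps16 in the former and Rpl39 and Rps3 in the latter. The control count was 4 without the libraries numbered 2, 14 without those numbered 5, 21 without those numbered 3, 29 without those numbered 4 and 21 with length and GC offsets.

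The question of the study, whether an intruder changes transcript levels, gave no call among these genes. At each of 3 times in each of 3 regions, 0 of 81 members passed an adjusted p of 0.05 between intruder and control residents by edgeR, and 0 passed by DESeq2 or limma voom. Of all genes, 0.538% were called after 120 min in amygdala, 0.192% after 120 min in hypothalamus and 0.0% in the other 7 comparisons. An unadjusted p below 0.05 was found for 0, 48 and 9 members in amygdala (30, 60 and 120 min), for 5, 0 and 1 in frontal cortex and for 0, 0 and 2 in hypothalamus. The shares of all genes at that unadjusted threshold were 2.74%, 7.13% and 15.1%, then 6.28%, 2.54% and 5.34%, and last 1.92%, 2.22% and 11.5%. The 9 members of amygdala at 120 min are thus a smaller share than that of all genes.

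**Figure D4:**
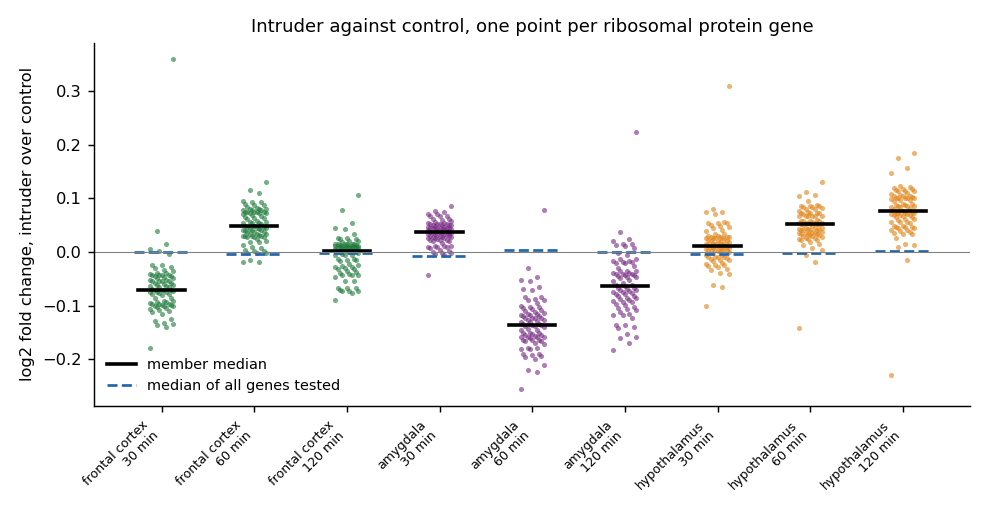
Log2 fold change of intruder over control (y axis) for each of the 81 ribosomal protein genes (points) in the 9 comparisons, with the member median in black and the median of all genes tested in dashed blue. Members lie mostly on one side of 0 in 7 of the 9 comparisons, from a median of -0.14 in amygdala at 60 min to 0.08 in hypothalamus at 120 min, and none passed the test.

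Medians of the members were small and pointed both ways. They were -0.14 in amygdala at 60 min, with 80 of 81 members lower, -0.06 in amygdala at 120 min, with 72 lower, and -0.07 in frontal cortex at 30 min, with 76 lower. They were 0.04 in amygdala at 30 min, 0.05 in frontal cortex at 60 min, 0.05 in hypothalamus at 60 min and 0.08 in hypothalamus at 120 min, with 76, 75, 78 and 79 members higher. In frontal cortex at 120 min (0.00, 43 higher) and hypothalamus at 30 min (0.01, 56 higher) they lay close to 0. Leaving out 1 library moved the median between 0.012 (intruder 4) and 0.096 (intruder 1) in frontal cortex at 60 min, between 0.012 (control 3) and 0.070 (control 5) in hypothalamus at 60 min, and between -0.096 (control 2) and -0.011 (control 1) for the 120 min comparison of amygdala. It moved the 30 min medians between -0.085 (intruder 5) and -0.034 (intruder 3) in frontal cortex and between 0.020 (intruder 1) and 0.070 (control 1) for amygdala libraries. The hypothalamus median of 120 min was -0.04 without the intruder 1 of that time. Offsets for length and GC content gave 0.017 in frontal cortex at 60 min, with 57 members higher, -0.043 for frontal cortex libraries of 30 min and -0.022 for amygdala libraries of 120 min. Since members move together from library to library, a count of members on one side is not a count of independent genes. Short genes had medians of the same sign in 7 of the 9, for example -0.11 for the 60 min comparison of amygdala. In hypothalamus at 120 min, endothelial marker sums were 91.5 to 142 CPM in intruder libraries and 145 to 171 in controls. Mural cell marker sums were 92.9 to 115 and 137 to 168 CPM. Sums of neuron, oligodendrocyte, astrocyte, microglia and blood markers overlapped there. The part of these markers was not tested.

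In amygdala at 60 min, the comparison with the largest median, Rpl32 and Rpl41 had the smallest p-values. Rpl32, a large-subunit protein, had 106, 112, 113, 115 and 132 CPM in controls and 93.6, 99.9, 102, 102 and 109 CPM in intruder libraries, a log2 fold change of -0.19 ± 0.054 that did not pass (edgeR adjusted p = 0.636). Rpl41 had 143, 151, 166, 170 and 199 CPM in controls and 127, 135, 140, 145 and 147 in intruder libraries (-0.26 ± 0.076, adjusted p = 0.636). The groups overlapped for both. Of these controls 4 of 5 carried a leading index that no 60 min intruder library carried. With the index in the fit the member median was 0.01, and the 1 control that shared the index of the 5 intruder libraries had a summed level of 10193 CPM, inside their range of 9750 to 11127.

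In amygdala at 120 min the lowest p-values were those of Rpl29 (-0.18 ± 0.064, adjusted p = 0.166) and Rpl10a (-0.15 ± 0.055, adjusted p = 0.171), neither past the threshold. Rpl29, a small basic protein of the large subunit, had 46.3, 46.3, 47.4, 48.8 and 57.8 CPM in controls and 41.7, 43.2, 43.9, 44.0 and 44.4 in intruder libraries, and it was 1 of 2 members whose groups did not overlap there, the other being Rps21 (1.60% of all genes in that direction). In frontal cortex Rpl38, linked to translation of Hox messages, had -0.18 ± 0.063 at 30 min (adjusted p = 0.771). In hypothalamus at 120 min, intruder library 1 had a sum of 17039 CPM, against 11341 to 12761 in the other 4 and 11878 to 12737 in controls. Without it the member median was -0.04 in place of 0.08. The smallest p-values there were those of Rpl7l1 (0.12 ± 0.054, edgeR adjusted p = 0.412) and Rps29 (0.19 ± 0.090, 0.433). In that intruder library 1, reads outside annotated genes were 10.05% of the table's reads, against 12.06% to 12.60% in the other 4. Its reads aligned to more than 1 place were 10.88%, against 9.92% to 10.30%. The part of these read classes in its level was not tested.

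Libraries of the 2 conditions overlapped for all members in 7 of the 9 comparisons. The exceptions were Rps21 and Rpl29 above and Rps15a, higher in all 5 intruder libraries of hypothalamus at 30 min than in its 3 controls. The shares of all genes wholly higher and wholly lower were 0.359% and 0.44% in amygdala at 30 min, 0.116% and 0.266% after 60 min, then 1.55% and 1.6% after 120 min. In frontal cortex they were 0.451% and 0.626%, 0.187% and 0.187%, and 0.14% and 0.117% at the same times. In hypothalamus they were 1.63% and 1.58%, 0.255% and 0.232%, and 0.402% and 0.883%.

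The intruder effect did not pass as different between times or between regions for any member. A test of whether the effect differs between times gave 0 of 81 in amygdala, frontal cortex and hypothalamus by edgeR, DESeq2 and limma voom, with 12, 6 and 0 at an unadjusted p below 0.05. Of all genes 0.0%, 0.0% and 0.0113% passed, and 12.1%, 4.45% and 5.67% had an unadjusted p below 0.05. Tests of a difference between regions gave 0 of 81 at 30, 60 and 120 min by the same tools, with 0, 31 and 4 at an unadjusted p below 0.05, where 2.42%, 3.15% and 7.53% of all genes were below it. Of all genes 0.0%, 0.0% and 0.0109% passed the adjusted threshold. The smallest p at 60 min was that of Rpl37a (0.00207, adjusted p = 1.0).

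Between regions the members differed by less than most genes. Over all libraries, 62 of 81 were called between frontal cortex and hypothalamus, where 87.4% of all genes were, 40 between frontal cortex and amygdala (76.7%) and 56 between amygdala and hypothalamus (80.1%). The median size of the difference was 0.15, 0.06 and 0.10 on the log2 scale for members and 0.42, 0.22 and 0.27 for all genes. A difference of 0.5 or more was found for 3, 0 and 0 members, against 43.6%, 24.1% and 29.6% of all genes. Of the called members 21 were higher and 41 lower in frontal cortex than in hypothalamus (42.2% and 45.1% of all genes), 18 higher and 22 lower in frontal cortex than in amygdala (35.4% and 41.3%), and 14 higher and 42 lower in amygdala than in hypothalamus (40.6% and 39.6%). These splits moved with the scaling: upper-quartile scaling gave 15 and 53, 17 and 24, and 10 and 51, and offsets for length and GC content gave 32 and 33, 28 and 28, and 32 and 30. All 3 regions were sampled in 28 of 32 animals. With the animal as a block 64, 41 and 56 members were called, in a limma voom fit, so the tool differed as well as the block.

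A regional difference that does not depend on scaling was that of Rpl22 and Rpl22l1, paralogs that can take the same place in the large subunit and of which Rpl22 is known to repress the message of Rpl22l1. Rpl22 (ENSMUSG00000028936) had 90.8 ± 6.97 CPM in frontal cortex (SD, n = 32), 77.3 ± 4.38 in amygdala (n = 30) and 65.7 ± 3.69 in hypothalamus (n = 28). Rpl22l1 (ENSMUSG00000039221) ran in the opposite order, with 42.0 ± 4.65, 51.3 ± 4.34 and 65.1 ± 6.34 CPM. From hypothalamus to frontal cortex Rpl22 was higher by 0.47 ± 0.019 (log2 ± SE, adjusted p = 5.61e-37) and Rpl22l1 fell by 0.63 ± 0.029 (adjusted p = 1.41e-33). Their ratio within a library, which no library scaling can change, was 1.93 to 2.48 in frontal cortex (median 2.20), 1.32 to 1.798 in amygdala (median 1.51) and 0.885 to 1.12 in hypothalamus (median 1.01). The 3 ranges did not overlap in any of the 90 libraries.

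**Figure D5:**
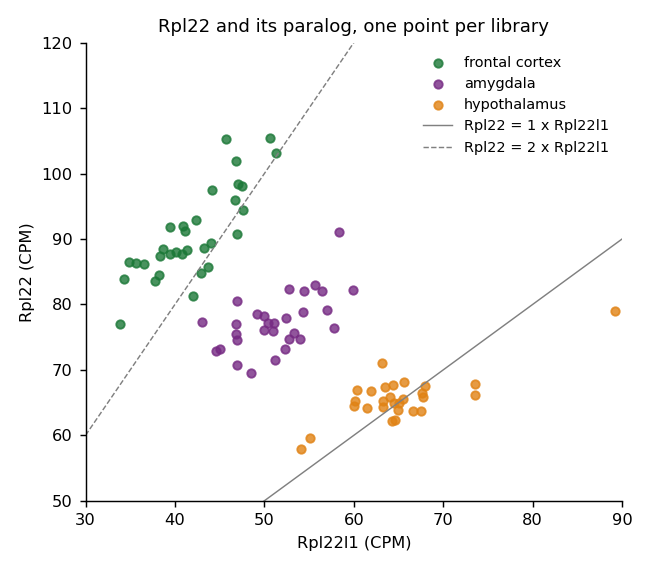
Rpl22 (y axis, CPM) against Rpl22l1 (x axis, CPM) in the 90 libraries, coloured by region, with lines at equal level and at a ratio of 2. The axes do not start at 0. The regions form separate clouds, with median ratios of 2.20 in frontal cortex, 1.51 in amygdala and 1.01 in hypothalamus.

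By time and condition the ratio varied less than between regions. In frontal cortex its group medians ran from 2.05 to 2.27, in amygdala from 1.39 to 1.61 and in hypothalamus from 0.957 to 1.07. In amygdala the 60 min intruder libraries (1.57 to 1.71) lay above the 30 min intruder libraries (1.32 to 1.51). The ratios of other pairs overlapped between regions. Rpl36a was 2.25, 2.27 and 2.12 times Rpl36al in frontal cortex, amygdala and hypothalamus (medians), Rps27 was 13.8, 14.4 and 13.9 times Rps27l, and Rpl7 was 3.74, 4.01 and 4.28 times Rpl7l1. Rpl3l had average levels of 0.422 CPM in amygdala, 0.401 in frontal cortex and 0.300 CPM in the hypothalamic libraries, so Rpl3 exceeded it by 887, 812 and 1359 times (medians).

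Rps15a (ENSMUSG00000008683), which did not pass over times, had the smallest adjusted p between regions. It had 137 ± 5.49 CPM in frontal cortex, 156 ± 5.62 in amygdala and 196 ± 7.31 in hypothalamus. All 28 hypothalamus libraries (184 to 222) lay above all libraries of amygdala (144 to 166) and of frontal cortex (125 to 150). The difference of frontal cortex from hypothalamus was -0.52 ± 0.014 (adjusted p = 3.73e-48), and of amygdala from hypothalamus -0.33 ± 0.015 (adjusted p = 7.00e-34). Rpl3, a large-subunit protein that reaches towards the peptidyl transferase centre, had 310 ± 27.5, 356 ± 20.8 and 428 ± 33.5 CPM in the same order (-0.46 ± 0.023 from hypothalamus to frontal cortex, adjusted p = 2.15e-31), and its hypothalamus libraries (387 to 569) did not overlap those of frontal cortex (250 to 365).

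Rps6 was higher in hypothalamus than in both other regions, with 117 ± 10.5 CPM against 88.8 ± 6.16 in amygdala and 88.3 ± 9.64 in frontal cortex. It was not called between the last 2 (log2 difference -0.01 ± 0.025, adjusted p = 0.604). In the other direction stood Rpl29, with 56.5 ± 7.14 CPM in frontal cortex, 48.7 ± 4.61 in amygdala and 35.3 ± 3.66 in hypothalamus (0.67 ± 0.0315 from hypothalamus to frontal cortex, adjusted p = 3.34e-33). Rpl12, part of the base of the stalk, had 181 ± 14.7, 158 ± 12.1 and 144 ± 13.0 CPM. Rps14, a small-subunit protein, was higher in frontal cortex than in amygdala by 0.27 ± 0.028 (adjusted p = 1.26e-14), Rps2 was higher in amygdala than in hypothalamus by 0.27 ± 0.030 (adjusted p = 2.33e-13), and Rpl6 was lower there (-0.28 ± 0.023, adjusted p = 5.97e-19). Rplp2 was called between no regions (103 ± 13.5, 105 ± 9.83 and 103 ± 11.8 CPM in frontal cortex, amygdala and hypothalamus). Rplp0 was higher in frontal cortex (147 ± 12.3) than in amygdala (134 ± 8.83) or hypothalamus (132 ± 8.80). All 6 oligodendrocyte markers were also called higher in hypothalamus than in both other regions. Sums of 5 neuron markers did not overlap, at 2469 to 3305 CPM in hypothalamus, 3357 to 4584 in amygdala and 4998 to 6429 in frontal cortex. All 5 microglia markers were called lower in hypothalamus than in both other regions, with sums of 147 to 194 CPM there against 216 to 287 in amygdala and 222 to 276 in frontal cortex. The part of these markers in the differences between regions was not tested.

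Of the 81 members 25 were called between all 3 pairs of regions, 38 in 2, 7 in 1 and 11 in none. Of all genes 56.8% were called in 3 pairs, 35.0% in 2, 3.88% in 1 and 4.34% in none. Of the 25, 16 were highest in hypothalamus and lowest in frontal cortex, among them Rpl3, Rpl10, Rpl22l1, Rps15a and Rpsa. Another 7 had the opposite order (Rpl5, Rpl12, Rpl22, Rpl29, Rpl41, Rps14 and Rps18), and Rpl4 and Rpl26 were highest in hypothalamus and lowest in amygdala.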

How the data were processed

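The deposited table holds raw read counts per Ensembl gene for 90 single-end, stranded mRNA libraries. The submitters' processing notes name CASAVA 1.8.2, TopHat2 2.0.8, HTSeq 0.6.1, edgeR 3.2.4, R 3.0.0 and build NCBIM37, and the labels' protocols name Trizol extraction and DNase treatment. The 5 table lines that name no gene held 20.6% to 25.3% of the reads and were left out.

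Symbols, transcript lengths and GC content came from Gencode M21 (32938 of 37991 identifiers matched), and promoters from RefSeq GRCm38.p6. Since these builds differ from that of the counts, only names, lengths and promoter windows were used. Lengths and GC were found for all 83 members.

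Counts were tested in R 4.3.3 with edgeR 4.0.16 (TMM scaling, filterByExpr, quasi-likelihood F test), in 1 fit of 6 groups for each region and in 1 fit of all 18 groups for contrasts between regions. Benjamini-Hochberg adjustment ran over all genes tested, and a gene was called at an adjusted p below 0.05. CPM are scaled within a region, or over all libraries for levels set between regions. Fold changes are log2 with SE, and scores are means of log2(CPM + 1). Genes with full statistics are those with the smallest p in each comparison (up to 3 a direction if called, otherwise 2), with Rplp0, Rplp1, Rplp2, Rpsa, Rps6, Rpl41 and the paralog pairs. Some results under this rule are not reported here. The members, the lists and the tests were chosen with earlier results of these data known. The scripts were tested on simulated data.

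Alternatives were DESeq2 1.42.0, limma voom 3.58.1, other scalings, no filter, blocks for replicate number, leading index or animal, each library left out, and offsets for length and GC content. Same-numbered libraries of control and intruder groups correlated at -0.5 to 0.56 and in 0 of 9 sets were all above 0.1, so the numbers were not taken as pairs. No pair of libraries within a group agreed to within sampling noise (chi-square per degree of freedom at least 4.62 over 183 pairs).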

Additional observations from a re-analysis of the deposited data

Results flagged for a closer look

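Within groups of 4 to 10 libraries, 34 sets of values were searched for 1 library far from the others, a search that marks about 1 set in 20 by chance. In hypothalamus, intruder library 1 of 120 min had a summed level of 17039.3 CPM for the ribosomal protein genes, where the nearest other library had 12760.9. Its other short genes were high as well, with a mean log2 level of 3.38. In amygdala, control 1 of 120 min had 12314.5 CPM and the nearest other library 10496.2. In frontal cortex, control 5 of 60 min had 12201.9 CPM and the nearest other library 11140.8. The ratio of Rpl22 to Rpl22l1 in intruder library 4 of frontal cortex at 60 min was 2.30142, where the nearest of its group had 2.09325.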

How the results depend on the processing

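The 0 calls between intruder and control held in all 9 comparisons under every alternative run, and 18 of 26 counts of called members were 0 in all of their 390 fits. Among the genes with the smallest p in each comparison no call changed direction. Rpl36 and Rpl35 each lost their amygdala call in 2 of 23 alternatives, Rpl22l1 in 1 of 23, and Rps3 its call for times between regions in controls in 1 of 13.

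With the leading index in the fit, the amygdala count over times in the intruder groups went from 28 to 0, the median of the intruder effect in amygdala at 60 min to 0.0099, the amygdala control medians to -0.095 (60 minus 30 min) and -0.207 (120 minus 30 min), and the amygdala intruder medians to -0.163 (120 minus 60 min) and -0.279 (120 minus 30 min). With offsets for length and GC content, the counts were 7 for amygdala intruder times, 49 for frontal cortex control times and 21 for times between regions in controls, and the frontal cortex medians were 0.142 and -0.109 in controls and 0.198 and -0.116 in the intruder groups (60 minus 30 and 120 minus 60 min). Between 60 and 120 min alone the amygdala intruder count was 0. In frontal cortex the test over all 3 times could not be fitted with the index, and for 120 minus 60 min in the intruder groups the index took the count from 76 to 0 and the median from -0.252 to -0.324. The cause of these changes was not tested.

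Leaving out 1 library moved the amygdala intruder count between 4 and 44, the hypothalamus median at 120 min between -0.040 and 0.124, and the hypothalamus intruder medians between -0.030 and 0.134 (120 minus 60 min) and between -0.067 and 0.092 (120 minus 30 min). Leaving out the libraries of 1 number moved the count for times between regions in controls between 4 and 62.

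With the replicate number as a block, 19 members were called over times in amygdala intruder groups and 77 and 79 in frontal cortex controls and intruder groups. The numbers are shared labels and not shown to pair animals.

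Groups of 3 to 6 libraries limit what can be seen: differences between conditions of the size of the member medians were not called, which does not show that the levels are equal.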
